A study of Homo sapiens with 8 samples.

Results

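The E2F transcription factors and cyclin E genes described here are 10 genes of the pathway that carries a cell from G1 into S phase. They were chosen by symbol, with earlier results of these data known: E2F1, E2F2, E2F3, E2F7, E2F8, CCNE1, CCNE2, CDC25A, RBL1 and TFDP1. All 10 were among the 38173 gene symbols of the table, and all 10 were among the 16647 genes with enough reads to be tested. The cells were MH7A, a human line of rheumatoid arthritis synovial cells, sequenced as poly(A) RNA in 8 libraries, 2 in each of 4 groups. Mock cells carried a label of DMSO, although the design text describes them as incubated as normal. TNF cells were stimulated with tumour necrosis factor for 24 h, at 20 ng per mL in the design text and 20 ng per microlitre in the label. TNF + Tub B cells received TNF and 60 µM Tubuloside B (Tub B), a phenylethanoid glycoside, together for 24 h, with the unit of TNF cut short in the label. Tub B cells received 60 µM Tub B alone for 24 h. All groups came from the same line, which was immortalised with SV40 large T antigen, a viral protein that binds proteins of the retinoblastoma (RB) family. RB control of E2F may therefore be altered in every group, mock included, which was not measured here. Nothing in the labels ties a group's libraries to different cultures. The p-values therefore reflect only how far these libraries varied, which may be technical.

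In textbook form, E2F1, E2F2 and E2F3 pair with a DP protein such as TFDP1 and switch on genes for DNA replication. RB and its relatives, among them p107, the product of RBL1, hold E2F in check until cyclin D and cyclin E kinases phosphorylate them. CCNE1 and CCNE2 encode cyclin E, which activates CDK2, and CDC25A encodes a phosphatase that removes inhibitory phosphates from CDK2. E2F7 and E2F8 are repressors that bind DNA without a DP partner and damp the same targets later in S phase. Many of these genes are themselves E2F targets, so the pathway feeds back on itself.

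Promoter sequence was searched for the E2F motif, and the promoters shown are those of members whose RNA passed a test below and whose upstream window holds it. The motif was searched as TTTCCCGC, TTTCGCGC, TTTGCCGC and TTTGGCGC on both strands, from 250 bases before to 50 bases after each start site, in the RefSeq promoter table of build GRCh38.p14. Of the 10 members 8 had a promoter in the table, with 9 promoters in all because E2F3 has a pair of start sites. A match was present in 6 of the 9 (66.7%), against 1164 of all 35116 promoters of that length (3.31%). Of the S phase target genes listed below, 19 of 45 promoters held a match (42.2%), and of the G2 and mitosis genes 3 of 30 did (10%). The closest relatives of the members held few, with 1 of 19 promoters of other E2F, DP, RB and DREAM genes (5.26%). None of 23 promoters held a match in the list of G1 cyclins, CDKs and CDK inhibitors described below. RBL1 and E2F1 had 2 matches each, and 51 promoters of the whole table had 2 or more (0.145%). A match is a description of letters and not a measured site. The members and the S phase list were chosen as genes of the E2F pathway, so their contrast with all promoters is no test. The 250 bases before each start are printed on the strand of the gene, with the matches in capitals.
E2F1 (chr20:33686386-33686635, minus strand): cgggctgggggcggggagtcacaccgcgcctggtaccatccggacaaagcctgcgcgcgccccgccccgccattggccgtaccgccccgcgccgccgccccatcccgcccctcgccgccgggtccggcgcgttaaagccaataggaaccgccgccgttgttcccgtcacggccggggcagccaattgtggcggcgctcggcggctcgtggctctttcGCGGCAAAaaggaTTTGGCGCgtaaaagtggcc
RBL1 (chr20:37095998-37096247, minus strand): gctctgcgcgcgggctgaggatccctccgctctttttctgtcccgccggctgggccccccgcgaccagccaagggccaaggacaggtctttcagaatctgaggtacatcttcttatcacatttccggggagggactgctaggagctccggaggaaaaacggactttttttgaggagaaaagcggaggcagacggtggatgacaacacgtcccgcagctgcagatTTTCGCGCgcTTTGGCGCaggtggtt
CDC25A (chr3:48188418-48188667, minus strand): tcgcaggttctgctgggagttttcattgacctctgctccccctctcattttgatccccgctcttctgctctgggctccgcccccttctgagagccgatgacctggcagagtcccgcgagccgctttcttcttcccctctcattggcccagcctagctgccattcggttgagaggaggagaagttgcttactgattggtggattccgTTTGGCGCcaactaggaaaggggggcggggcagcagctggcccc
E2F2 (chr1:23531234-23531483, minus strand): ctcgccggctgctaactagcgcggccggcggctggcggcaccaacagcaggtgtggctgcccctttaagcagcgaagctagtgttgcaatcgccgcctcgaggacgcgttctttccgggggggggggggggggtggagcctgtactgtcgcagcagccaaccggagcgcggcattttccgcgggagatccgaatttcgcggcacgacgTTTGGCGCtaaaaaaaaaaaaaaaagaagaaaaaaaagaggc
E2F3 (chr6:20401629-20401878, plus strand, upstream of its start sites): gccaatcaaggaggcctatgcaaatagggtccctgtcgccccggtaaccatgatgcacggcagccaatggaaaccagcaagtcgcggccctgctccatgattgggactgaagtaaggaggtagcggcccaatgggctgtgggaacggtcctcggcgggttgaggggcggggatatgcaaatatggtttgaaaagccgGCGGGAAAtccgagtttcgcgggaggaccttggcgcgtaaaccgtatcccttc
TFDP1 (chr13:113584503-113584752, plus strand): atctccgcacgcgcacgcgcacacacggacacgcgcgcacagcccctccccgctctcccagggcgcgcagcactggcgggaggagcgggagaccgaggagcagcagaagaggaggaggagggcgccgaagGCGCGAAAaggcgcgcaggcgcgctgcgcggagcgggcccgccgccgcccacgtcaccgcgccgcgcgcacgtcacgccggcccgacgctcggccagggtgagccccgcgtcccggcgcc

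In E2F1 the matches lie at −33 to −26 and −20 to −13 from the start site, the first of them on the opposite strand. In RBL1 they lie at −26 to −19 and −16 to −9. CDC25A and E2F2 each have TTTGGCGC at nearly the same distance, −44 to −37 and −42 to −35. E2F3 has 1 match, at −53 to −46 of the upstream of its start sites, and TFDP1 has 1 at −120 to −113. None of the matches overlapped another. No match was found in this window for CCNE1, E2F7 or the second start of E2F3, which says only that these letters are not there.

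Gene counts summed to between 14073186 and 31937334 per library, and the TNF + Tub B libraries were the 2 smallest. Levels are CPM, counts set relative to each library's total after scaling by trimmed mean of M-values. Of 11 synovial fibroblast markers 10 averaged at least 1 CPM, and the lubricin gene PRG4, a marker of lining fibroblasts, had 2 to 9 counts per library. Markers of macrophages, T cells, endothelium and epithelium summed to at most 3.70, 0.426, 1.80 and 0.793 CPM in any library. By chi-square per degree of freedom over genes, the mock libraries differed from each other more than those of the other groups, at 5.22 against 2.22 to 2.64. By genes at least 1.25-fold apart, mock and TNF + Tub B were close. In mock 1808 genes were lower and 1639 higher in replicate 2, and in TNF + Tub B 1700 and 1837. Results against mock are given below with and without each mock library for the members and for the count of each pathway list.

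Among the activators, E2F1 stood at 37.5 and 27.1 CPM in the mock libraries, 43.6 and 39.3 with TNF, 52.4 and 45.1 with TNF + Tub B, and 23.2 and 26.1 with Tub B. Its libraries thus ranked Tub B, mock, TNF and TNF + Tub B from lowest to highest with no overlap between groups, but the mock libraries lay far apart. E2F2, a close relative at a much lower level, had 4.19 and 2.42 CPM in mock, 3.87 and 4.15 with TNF, 5.43 and 4.92 with TNF + Tub B, and 1.82 and 2.23 with Tub B. Here the mock libraries spanned the TNF libraries, while TNF + Tub B was above and Tub B below all others. E2F3 was nearly flat, at 34.0 and 34.8 CPM in mock, 37.3 and 41.5 with TNF, 36.9 and 38.0 with TNF + Tub B, and 33.4 and 33.8 with Tub B. TFDP1, the DP partner, stood at 183 and 162 CPM in mock, 171 and 167 with TNF, 187 and 177 with TNF + Tub B, and 149 and 161 with Tub B. Both E2F3 and TFDP1 had their lowest pair of values in Tub B, and in neither was TNF + Tub B above all other libraries.

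RBL1, the pocket protein gene, had 18.4 and 15.2 CPM in mock, 18.2 and 17.3 with TNF, 25.6 and 25.4 with TNF + Tub B, and 16.6 and 15.8 with Tub B. The mock libraries of RBL1 spanned those of TNF and Tub B, and TNF + Tub B stood clear of all of them. The repressor E2F7 was at 32.1 and 22.6 CPM in mock, 35.1 and 33.8 with TNF, 51.8 and 44.9 with TNF + Tub B, and 24.7 and 24.3 with Tub B. Its relative E2F8 was at 5.26 and 2.88 CPM in mock, 4.63 and 3.57 with TNF, 6.88 and 5.40 with TNF + Tub B, and 2.19 and 2.33 with Tub B. For both repressors the mock libraries lay far apart. Mock replicate 1 of E2F7 was just below the TNF libraries, while that of E2F8 was above them and just below TNF + Tub B replicate 2.

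Among the cell cycle targets, CCNE1 had 10.1 CPM in both mock libraries, 9.59 and 11.0 with TNF, 15.7 and 14.8 with TNF + Tub B, and 10.9 and 10.4 with Tub B. The other 6 libraries of CCNE1 lay within a narrow range below the TNF + Tub B pair. CCNE2 had 4.09 and 3.44 CPM in mock, 5.16 in both TNF libraries, 8.32 and 8.87 with TNF + Tub B, and 3.50 and 3.60 with Tub B. CDC25A had 14.3 and 12.4 CPM in mock, 16.5 and 14.5 with TNF, 22.7 and 21.6 with TNF + Tub B, and 10.5 and 10.6 with Tub B. CCNE2 differed from CCNE1 in that its TNF libraries lay above its mock libraries, and CDC25A had all 4 groups in order with no overlap.

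**Figure D1:**
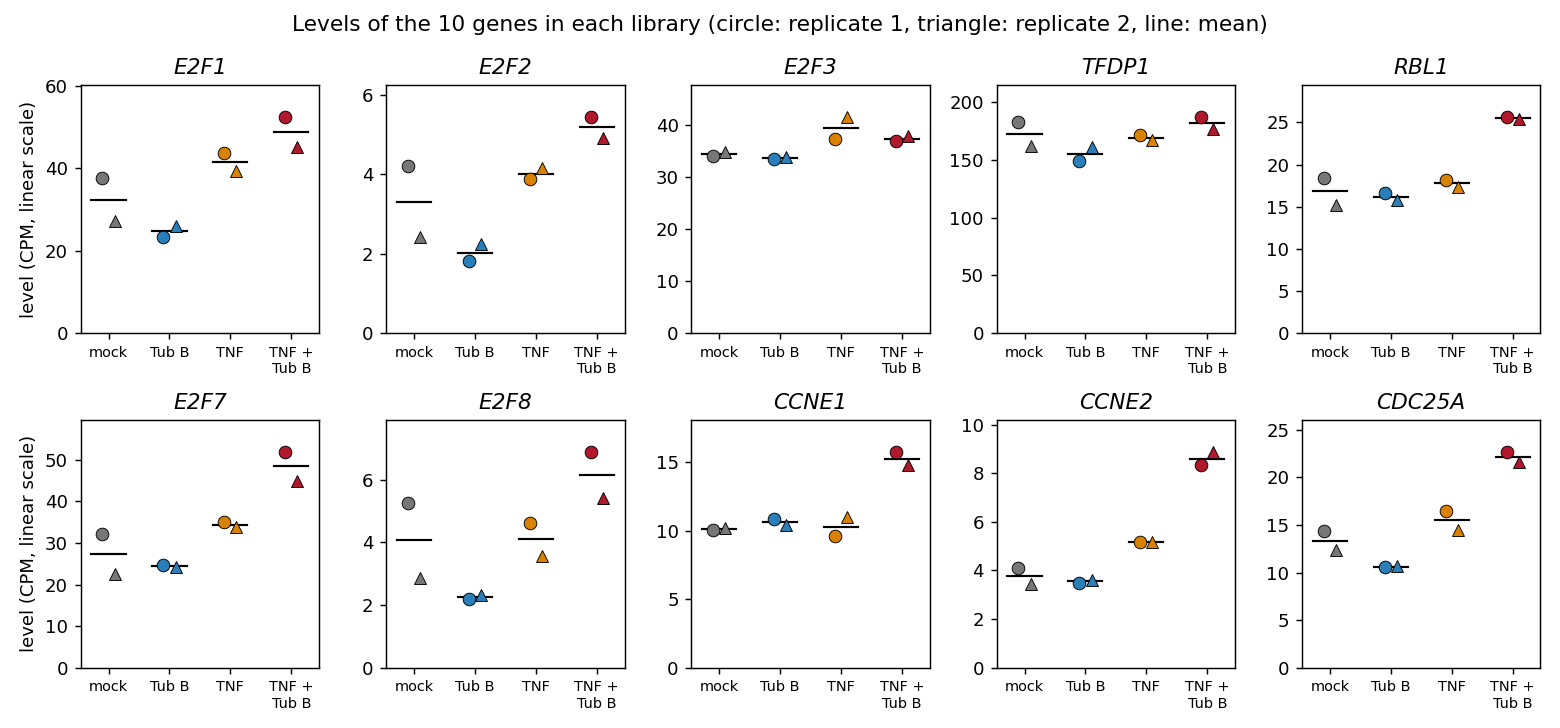
Level of each gene in CPM (linear vertical axes from 0) by group, with replicate 1 as a circle, replicate 2 as a triangle and the mean of 2 libraries as a line. In 8 of the 10 panels both TNF + Tub B libraries stand above the other 6, and the mock points lie widest apart in E2F1, E2F2, E2F7 and E2F8.

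Both TNF + Tub B libraries were above the other 6 for 8 of the 10 genes (E2F1, E2F2, E2F7, E2F8, CCNE1, CCNE2, CDC25A and RBL1), an order that 9.00% of all tested genes shared. Both Tub B libraries were below the other 6 for 6 of the 10 (E2F1, E2F2, E2F3, E2F8, CDC25A and TFDP1), against 11.0% of all tested genes. In bulk RNA, a larger share of cells in G1 or S phase and more RNA of these genes per cell cannot be told apart. Levels can be compared between genes only per length. Per kilobase of merged exons in GENCODE 29, mock levels were 46.1 ± 3.99 CPM (SD, n = 2) for TFDP1, 12.9 ± 2.94 for E2F1 and 6.67 ± 0.109 for E2F3. E2F7 (4.33 ± 1.07 CPM per kilobase) and CCNE1 (3.96 ± 0.0254) overlapped in their libraries, as did CDC25A (3.25 ± 0.329) and RBL1 (2.82 ± 0.378). The 3 lowest per length were E2F8 (0.983 ± 0.407 CPM per kilobase), CCNE2 (0.856 ± 0.104) and E2F2 (0.606 ± 0.229). E2F8 overlapped both of the others, and both CCNE2 libraries lay just above both E2F2 libraries.

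The comparisons below share libraries, so their values are given side by side and not as separate evidence. The widest separation was between TNF + Tub B and Tub B, a comparison of cells with and without TNF that all received Tub B. Of the 10 genes 9 rose with TNF, and E2F3 did not pass, at a Benjamini-Hochberg adjusted p below 0.05 in edgeR's quasi-likelihood test. Over all tested genes 26.4% passed in this comparison, and 14.3% did so as higher. The median log2 fold change of the 10 genes was 0.99, beside −0.01 for all tested genes. The activator E2F1 went from 24.6 ± 2.05 to 48.7 ± 5.13 CPM (SD, n = 2), a log2 fold change of 0.99 ± 0.12 (SE, adjusted p = 4.61e-06). CDC25A went from 10.6 ± 0.0662 to 22.1 ± 0.733 CPM (1.06 ± 0.10, adjusted p = 3.64e-07).

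The largest log2 fold changes were in low genes with wide errors, E2F8 (1.45 ± 0.25), E2F2 (1.36 ± 0.24) and CCNE2 (1.27 ± 0.15). CCNE2 and CCNE1 encode sister cyclins, yet the change in CCNE1 was smaller (0.52 ± 0.11, adjusted p = 0.00113), and the difference between them was not tested. E2F7 rose by 0.98 ± 0.11 and RBL1 by 0.66 ± 0.09 on the log2 scale, so the repressor and pocket protein genes rose along with E2F1 and E2F2. TFDP1, which starts from the highest level, rose by 0.23 ± 0.06 (adjusted p = 0.00566). Leaving out replicate 1 of TNF + Tub B ended that call (0.19, adjusted p = 0.0966), as did leaving out replicate 1 of Tub B (0.17, adjusted p = 0.122). Of all genes called here 54.3% were higher, against 43.5% with upper-quartile scaling. The log2 fold change of E2F3 was 0.15 ± 0.07 (adjusted p = 0.129, 95% interval 0.00333 to 0.303).

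When Tub B was added to TNF, 5 of the 10 genes rose and 5 did not pass, whereas 20.2% of all tested genes passed and 7.11% as higher. The genes that rose were the cyclin E pair, CDC25A, RBL1 and the repressor E2F7. CCNE1 rose from 10.3 ± 0.973 to 15.2 ± 0.680 CPM (SD, n = 2), by 0.59 ± 0.10 on the log2 scale (adjusted p = 0.000483). CDC25A rose by 0.51 ± 0.09 (adjusted p = 0.000807) and RBL1 by 0.52 ± 0.09 (adjusted p = 0.000428). CCNE2 rose from 5.16 ± 0.00366 to 8.60 ± 0.387 CPM (0.73 ± 0.14, adjusted p = 0.000813). These 4 passed in each of the 19 alternative fits, including 8 that each left out 1 library.

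E2F7 rose by 0.49 ± 0.11 (adjusted p = 0.00303), but did not pass once replicate 1 of TNF + Tub B was left out (0.37, adjusted p = 0.0828) or in DESeq2 (adjusted p = 0.0510). The activators did not pass here. E2F1 changed by 0.23 ± 0.11 (adjusted p = 0.161) and passed when mock replicate 1 (adjusted p = 0.0292) or mock replicate 2 (adjusted p = 0.0272) was left out of the fit. E2F2 changed by 0.38 ± 0.20 (adjusted p = 0.222) and E2F8 by 0.56 ± 0.22 (adjusted p = 0.0844), with no overlap between the groups in any of the 3, an order that 28.1% of all tested genes shared in this direction. E2F8 also passed without mock replicate 1 (adjusted p = 0.0198) or mock replicate 2 (adjusted p = 0.0174). E2F3 changed by −0.07 ± 0.07 (95% interval −0.214 to 0.0777) and TFDP1 by 0.10 ± 0.06. With library totals in place of scaling factors, 8 of the 10 genes passed as higher, and the all-gene median shifted by 0.119. Of the 16647 tested genes 4756 then passed in either direction, against 3367 with scaling factors. Of all genes called in this comparison, 35.2% were higher, against 72.1% with library totals and 49.3% with upper-quartile scaling. Thinned to the total of the smallest library, the counts still gave 5 genes higher here and 9 in the comparison with Tub B.

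TNF against mock gave smaller differences that leaned on the mock libraries. E2F1, E2F3, E2F7 and CCNE2 rose, 4 of the 10, and 6 did not pass, where 30.5% of all tested genes passed and 17.2% as higher. CCNE2 went from 3.76 ± 0.458 to 5.16 ± 0.00366 CPM (SD, n = 2), a log2 fold change of 0.43 ± 0.15 (adjusted p = 0.0349). E2F1 rose by 0.34 ± 0.11 (adjusted p = 0.0245), E2F7 by 0.31 ± 0.11 (adjusted p = 0.0411) and E2F3 by 0.19 ± 0.07 (adjusted p = 0.0412). CCNE1 changed by 0.01 ± 0.10 (95% interval −0.210 to 0.232), and the libraries of the groups overlapped.

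Without mock replicate 2, no member passed in edgeR and 1 of the 10 had an unadjusted p below 0.05. E2F1 was then at 0.15 (adjusted p = 0.232), E2F7 at 0.11 (adjusted p = 0.401), CCNE2 at 0.34 (adjusted p = 0.165) and E2F3 at 0.20 (adjusted p = 0.0621). Without mock replicate 1, 5 genes rose, with E2F1 at 0.62 (adjusted p = 4.84e-05), E2F7 at 0.61 (adjusted p = 3.18e-05) and E2F2 at 0.72 (adjusted p = 0.0344), and the call of E2F3 was lost (0.17, adjusted p = 0.159). Leaving out TNF replicate 1 ended the calls of E2F1 (0.26, adjusted p = 0.217), E2F7 (0.29, adjusted p = 0.187) and CCNE2 (0.44, adjusted p = 0.141). Leaving out TNF replicate 2 ended those of E2F3 (0.12, adjusted p = 0.365), E2F7 (0.34, adjusted p = 0.0870) and CCNE2 (0.43, adjusted p = 0.0990). DESeq2 passed no member, with none at an unadjusted p below 0.05, and limma-voom passed 4. Of all genes 3495 passed in DESeq2 and 5163 in limma-voom. The call of E2F3 was lost too without any 1 of the TNF + Tub B or Tub B libraries (adjusted p = 0.0514 to 0.0572), so it passed in 1 of the 8 fits that left out a library, the one without TNF replicate 1. E2F7 was also lost without Tub B replicate 1 (adjusted p = 0.0680) or replicate 2 (adjusted p = 0.0664). In edgeR library totals and upper-quartile scaling each passed none, with 2 and 3 members at an unadjusted p below 0.05. Of all genes called with TNF, 56.3% were higher, against 38.2% with library totals and 40.0% with upper-quartile scaling.

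Tub B alone against mock lowered 4 of the 10 genes, the activators E2F1 and E2F2, the repressor E2F8 and CDC25A, and 6 did not pass. Over all tested genes 12.7% passed, 7.91% as lower. CDC25A fell from 13.4 ± 1.36 to 10.6 ± 0.0662 CPM (SD, n = 2), a log2 fold change of −0.35 ± 0.11 (adjusted p = 0.0363). E2F1 changed by −0.42 ± 0.12 (adjusted p = 0.0269), E2F2 by −0.77 ± 0.24 (adjusted p = 0.0430) and E2F8 by −0.91 ± 0.26 (adjusted p = 0.0249). The cyclin E genes did not pass, with CCNE1 at 0.08 ± 0.11 (95% interval −0.146 to 0.303) and CCNE2 at −0.11 ± 0.16 (95% interval −0.452 to 0.240).

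Each of these decreases was smaller without mock replicate 1, where no member passed in edgeR and none had an unadjusted p below 0.05. E2F1 was then at −0.14 (adjusted p = 0.510), E2F2 at −0.27 (adjusted p = 0.664), E2F8 at −0.35 (adjusted p = 0.536) and CDC25A at −0.23 (adjusted p = 0.336). Without mock replicate 2, 6 genes fell, the same 4 with E2F7 (−0.39, adjusted p = 0.00387) and TFDP1 (−0.24, adjusted p = 0.00442). No member passed in edgeR without Tub B replicate 1 or without Tub B replicate 2, with 2 and 5 members at an unadjusted p below 0.05. The call of E2F2 was also lost without any 1 of the TNF or TNF + Tub B libraries (adjusted p = 0.0532 to 0.0552). DESeq2 passed 1 member and limma-voom 3, where 1337 and 2163 of all genes passed. Of all genes called with Tub B alone, 37.9% were higher, against 63.8% with library totals.

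The interaction asks whether the change with Tub B differed between cells with and without TNF. It was positive in 9 of the 10 genes and passed in 7, E2F1, E2F2, E2F7, E2F8, CCNE2, CDC25A and RBL1, where 4.23% of all tested genes passed and 1.04% did so as positive. Of the interactions called over all genes 24.5% were positive, against 43.4% with library totals. CDC25A, which fell with Tub B alone and rose when Tub B was added to TNF, had an interaction of 0.85 ± 0.14 on the log2 scale (adjusted p = 0.00123). It passed in each of 18 alternative fits, and its adjusted p was 0.0176 at most when 1 library was left out. RBL1 had 0.59 ± 0.13 (adjusted p = 0.0133), E2F7 0.67 ± 0.16 (adjusted p = 0.0199) and E2F1 0.65 ± 0.16 (adjusted p = 0.0286). E2F8 (1.48 ± 0.34, adjusted p = 0.0167), CCNE2 (0.84 ± 0.21, adjusted p = 0.0329) and E2F2 (1.16 ± 0.32, adjusted p = 0.0476) had larger values with wider errors. CCNE1 missed the threshold (0.51 ± 0.15, adjusted p = 0.0676), as did TFDP1 (0.26 ± 0.08, adjusted p = 0.0866).

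CDC25A was the 1 member that passed when any of 5 libraries was left out, namely mock replicate 1, TNF replicate 2, TNF + Tub B replicate 1 and both Tub B libraries in turn. Of the other 6, E2F2 and CCNE2 also failed when TNF replicate 1 (adjusted p = 0.141 and 0.0942) or TNF + Tub B replicate 2 (adjusted p = 0.0784 and 0.0885) was left out. Without mock replicate 1 the interaction was 0.37 for E2F1 (adjusted p = 0.185), 0.37 for E2F7 (adjusted p = 0.146), 0.91 for E2F8 (adjusted p = 0.201) and 0.43 for RBL1 (adjusted p = 0.119). It was then 0.69 for CCNE2 (adjusted p = 0.228) and 0.65 for E2F2 (adjusted p = 0.436). Over the 8 fits that each left out 1 library, all 7 genes kept a positive value.

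**Figure D2:**
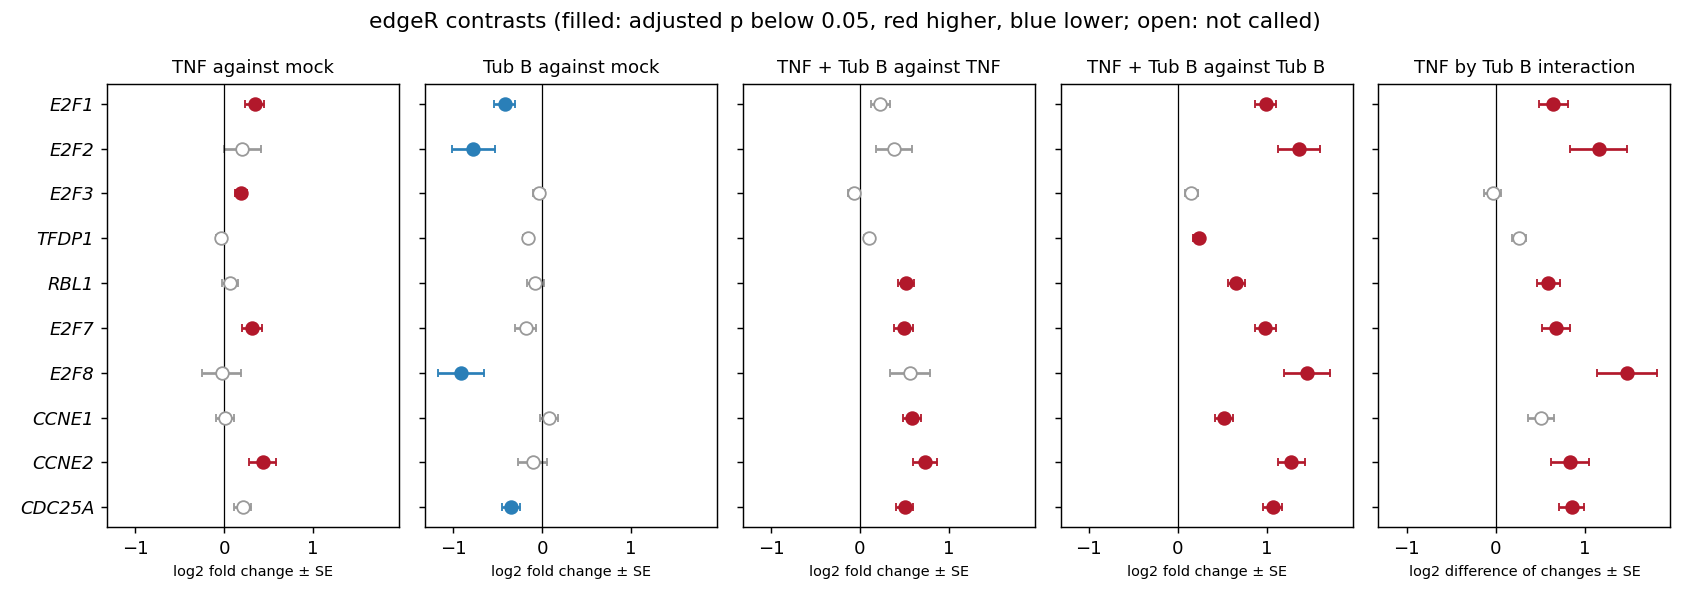
Log2 fold change ± SE of each gene in the 4 comparisons and, in the last panel, the log2 difference of changes for the interaction, from edgeR over 8 libraries. Filled points passed at an adjusted p below 0.05, red as higher and blue as lower, and 9 of the 10 points of TNF + Tub B against Tub B are filled red, from 0.23 for TFDP1 to 1.45 for E2F8.

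The difference between the 2 mock libraries was described for each gene as the ratio of replicate 2 to replicate 1, with a 95% interval for counting error only and no p, since it is 1 library against 1. Replicate 2 was lower for 8 of the 10 genes, where 50.6% of all tested genes were lower. The ratio was 0.723 for E2F1 (0.647 to 0.806), 0.704 for E2F7 (0.624 to 0.792), 0.578 for E2F2 (0.398 to 0.826) and 0.547 for E2F8 (0.390 to 0.756). These 4 were at least 1.25-fold lower, as were 10.9% of all tested genes. RBL1 (0.827, 0.711 to 0.960) and TFDP1 (0.885, 0.845 to 0.926) were lower by less, and the intervals of CDC25A (0.866), CCNE2 (0.842), E2F3 (1.02) and CCNE1 (1.01) included 1.

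The median log2 ratio of the 10 genes was −0.26 in mock, −0.04 in TNF, −0.09 in TNF + Tub B and 0.03 in Tub B. Only mock had more than 1 member at least 1.25-fold lower in replicate 2 than in replicate 1, with E2F8 the member in TNF and in TNF + Tub B, where 7.72% and 10.2% of all tested genes were that much lower. In Tub B no member was, against 9.71% of all tested genes. The S phase targets moved the same way between the mock libraries, with a median of −0.28 and 35 of 36 lower in replicate 2, and so did the G2 and mitosis genes, with a median of −0.21 and 24 of 25 lower. The part that this gap plays in the results against mock was measured only by leaving out each library, as above.

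**Figure D3:**
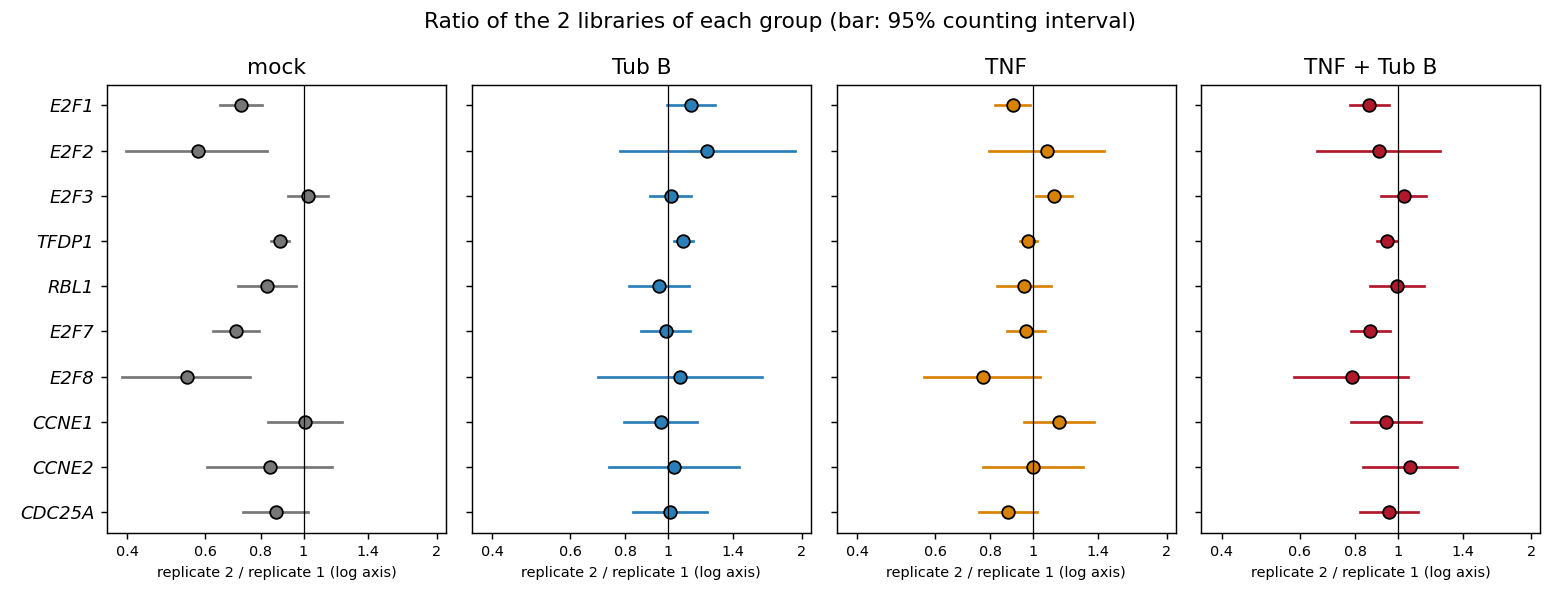
Ratio of replicate 2 to replicate 1 (log axis) for each gene in each group, with bars for the 95% counting interval. In mock the ratios of E2F1, E2F2, E2F7 and E2F8 lie between 0.547 and 0.723, while in Tub B the ratios lie between 0.951 and 1.22.

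Other genes of the pathway were followed as 4 lists. Of 36 S phase targets of E2F, which include the replicative helicase and nucleotide supply genes, 34 were higher in TNF + Tub B than in Tub B and 2 did not pass (median 0.62). DTL, which directs the destruction of the licensing factor CDT1, rose by 1.18 ± 0.12, CDC45, a helicase cofactor, by 1.13 ± 0.13 and RRM2, a subunit of ribonucleotide reductase, by 1.11 ± 0.07. Against TNF, 17 of the 36 rose and 19 did not pass (median 0.24), led by the loading factor CDC6 (0.57 ± 0.13), the histone chaperone gene CHAF1B (0.56 ± 0.12) and the replication factor gene MCM10 (0.55 ± 0.13), and 27 rose with library totals. With TNF alone 12 rose and 24 did not pass (median 0.15), with RRM2 at 0.57 ± 0.07, while with library totals 7 rose and 2 fell, and with upper-quartile scaling 8 rose and 1 fell. With Tub B alone 10 fell and 26 did not pass (median −0.22), led by the helicase subunit MCM7 (−0.61 ± 0.07) and UHRF1 (−0.57 ± 0.08), and 6 fell with library totals. The interaction passed for 17 of the 36, all positive, with DTL at 0.93 ± 0.17 and CDC45 at 0.87 ± 0.18.

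G2 and mitosis genes were called in the opposite direction to the E2F and cyclin E genes in 1 comparison, TNF + Tub B against TNF. Of all 16647 tested genes 2183 passed there as lower and 1184 as higher. When Tub B was added to TNF, 11 of 25 fell and 14 did not pass (median −0.12), with the kinesin gene KIF20A at −0.60 ± 0.05, the anaphase activator gene CDC20 at −0.56 ± 0.07 and cyclin B1 (CCNB1) at −0.50 ± 0.06. This decrease moved with the scaling: 7 fell with upper-quartile scaling, and with library totals 5 fell, 1 rose and the median was 0.00. Of the same 25, 15 rose with TNF alone (median 0.24, 9 with library totals), 16 fell with Tub B alone (median −0.38), and 20 were higher in TNF + Tub B than in Tub B (median 0.39). UBE2C, a ubiquitin-conjugating enzyme of mitosis, rose by 0.41 ± 0.09 with TNF alone, and the mitotic kinase gene AURKB was higher by 0.91 ± 0.11 in TNF + Tub B than in Tub B. The interaction passed in 1 of the 25, AURKB (0.62 ± 0.15, adjusted p = 0.0230). No test compared these lists with each other.

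The list of G1 cyclins, CDKs and CDK inhibitors had 18 genes, and also held CCNA2, SKP2, FBXW7, CKS1B and CKS2. Of the 18, 7 rose and 5 fell with TNF alone, SKP2 and FBXW7 being among those lowest in TNF. CDKN2B, an inhibitor of CDK4 and CDK6, was at 0.97 ± 0.13 and its target CDK6 at 0.79 ± 0.04. With Tub B added to TNF 3 rose and 3 fell. CDKN1A, the p21 inhibitor of cyclin E kinases, went from 748 ± 7.59 to 926 ± 29.3 CPM (SD, n = 2), a rise of 0.31 ± 0.05 alongside that of the cyclin E genes, and CDKN2B fell (−0.59 ± 0.13). Tub B alone lowered 5 of the 18, among them cyclin A (CCNA2, −0.43 ± 0.06) and CDK2, the kinase partner of cyclin E (−0.42 ± 0.07). In TNF + Tub B against Tub B 9 rose and 3 fell.

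The interaction passed for 4 of these 18, with 3 positive, among them CDK4 (0.39 ± 0.09) and CDK2 (0.38 ± 0.10), and CDKN2B negative (−0.88 ± 0.20). Of 13 other E2F, DP, RB and DREAM complex genes, 4 rose and 1 fell in TNF + Tub B against Tub B, with MYBL2, a mitotic gene activator, at 0.94 ± 0.10. TFDP2, another DP gene, fell with TNF alone (−0.60 ± 0.08) and rose when Tub B was added to TNF (0.53 ± 0.08) and with Tub B alone (0.25 ± 0.07). RB1, given outside the naming rule, stood at 74.1 ± 3.28 CPM (SD, n = 2) in mock, 86.1 ± 2.27 with TNF, 87.1 ± 6.06 with TNF + Tub B and 69.5 ± 0.123 with Tub B. No test result for RB1 is given here, so these levels are a description only.

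Leaving out 1 library moved these counts. For the S phase targets with TNF alone, 21 rose without mock replicate 1, and 6 rose and 1 fell without mock replicate 2. Their median with TNF alone was 0.12 without TNF replicate 1 and 0.02 without mock replicate 2, against 0.15 in the full fit. With Tub B alone, 5 S phase targets fell without mock replicate 1 (median −0.03), 22 without mock replicate 2, 5 without Tub B replicate 1 and 4 without Tub B replicate 2. With Tub B added to TNF, 2 rose and 1 fell without TNF + Tub B replicate 1, and 7 rose and 1 fell without TNF replicate 2. The higher calls against Tub B held best, at 31 to 35 of 36 over the 8 fits. Their interaction passed in 5 without mock replicate 1, 28 without mock replicate 2, 2 without TNF + Tub B replicate 1, 4 without Tub B replicate 2, 7 without TNF replicate 2 and none without Tub B replicate 1 in edgeR, where 28 had an unadjusted p below 0.05.

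For the G2 and mitosis genes, 21 rose with TNF alone without mock replicate 1, 10 without mock replicate 2 and 8 without TNF replicate 1. With Tub B alone, 11 fell without mock replicate 1, 20 without mock replicate 2 and 11 without Tub B replicate 1. With Tub B added to TNF, 5 fell once TNF replicate 1 was left out and 7 once TNF + Tub B replicate 1 was. The interaction passed in 10 of these 25 without mock replicate 2, and in at most 1 in the other 7 fits. For the G1 list, TNF alone gave 9 higher and 6 lower without mock replicate 1, and 7 and 5 without mock replicate 2. Tub B alone gave 3 lower without mock replicate 1, and 7 lower and 1 higher without mock replicate 2. For the other E2F, DP, RB and DREAM genes, TNF alone gave 3 higher and 1 lower without mock replicate 1, and 3 and 2 without mock replicate 2, and Tub B alone gave 2 lower without mock replicate 1, and 3 lower and 1 higher without mock replicate 2. The G1 interaction calls numbered at most 2 when any TNF, TNF + Tub B or Tub B library was left out, and 5 rather than 9 G1 genes were higher than in Tub B without TNF + Tub B replicate 1.

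**Figure D4:**
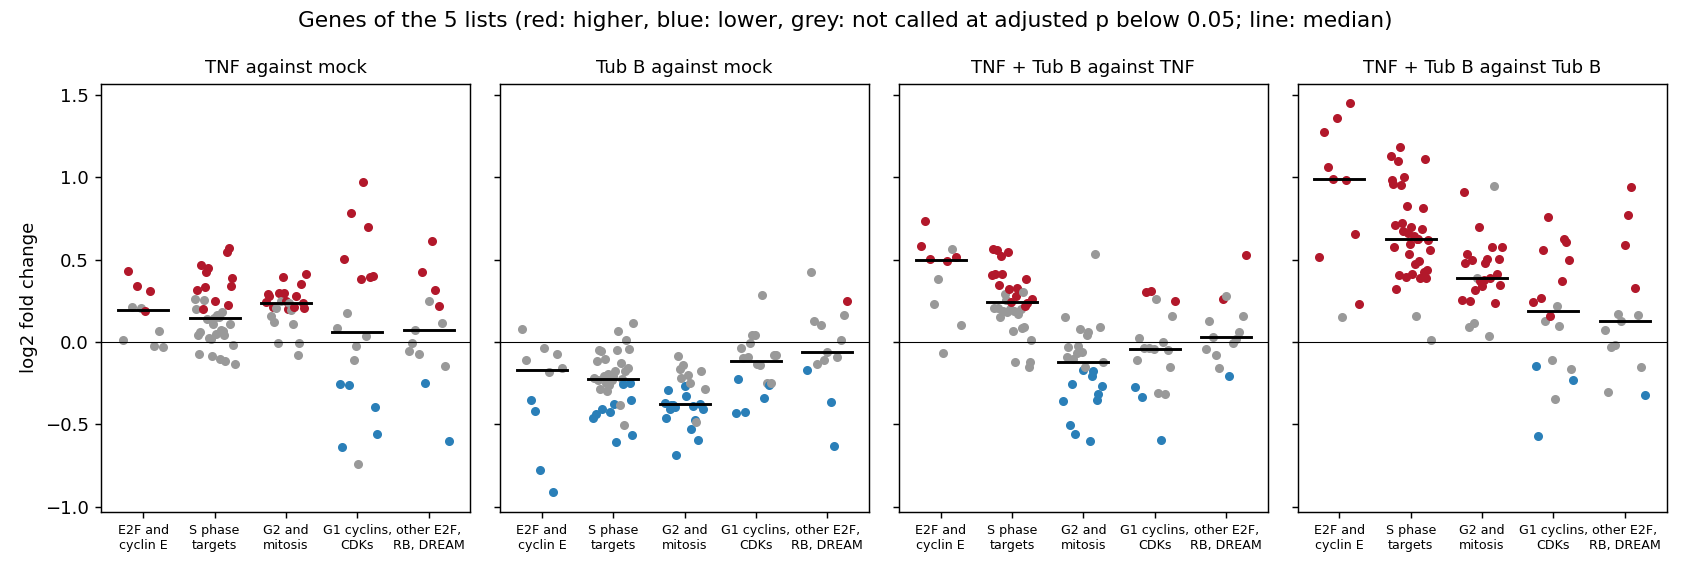
Log2 fold change of every gene in 5 lists for the 4 comparisons, each point a gene and each line the list's median, in red where higher, blue where lower and grey where not called at an adjusted p below 0.05. In TNF + Tub B against TNF the E2F and cyclin E genes have a median of 0.50 and the S phase targets 0.24, while G2 and mitosis genes have a median of −0.12, which becomes 0.00 with library totals.

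The members also followed each other across libraries. Pearson's r of log2 CPM over the 8 libraries, between each gene and the mean of the other 9, was 0.98 for E2F7, 0.98 for CDC25A, 0.95 for E2F1, 0.95 for CCNE2, 0.95 for E2F2, 0.91 for E2F8 and 0.91 for RBL1. It was lower for TFDP1 (0.82), CCNE1 (0.71) and E2F3 (0.54). The 5 other genes nearest to the members' mean profile, of 10983 with an average of at least 5 CPM, were ATAD2 (0.996), FAM111B (0.995), FANCA (0.994), DTL (0.994) and EME1 (0.993). ATAD2, a chromatin protein with a bromodomain, had 70.2 and 55.6 CPM in mock, 77.0 and 76.1 with TNF, 99.99 and 94.1 with TNF + Tub B, and 50.2 and 54.5 with Tub B. These correlations share libraries, groups and scaling, and are given as a description.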

How the data were processed

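The values used were raw gene counts deposited by the authors, 1 column per library, matched to samples by the descriptions in the labels with 0 columns unassigned. Per the labels' protocols the library kit was non-directional, so reads of overlapping antisense genes are not separable. STAR 2.7.0 and featureCounts (version not given in the sources used here) and the builds mm10 and hg19 are named per the submitters' processing notes, without saying which build served which step. The members, lists, naming rule and tests were chosen with earlier results of these data known.

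Computation used edgeR 4.0.16, DESeq2 1.42.0 and limma 3.58.1 in R 4.3.3. The filter filterByExpr left 16647 genes, which were fitted after trimmed mean of M-values scaling, with 1 coefficient per group over 8 libraries (4 residual and 13.1 prior degrees of freedom). Adjusted p-values come from the quasi-likelihood F test of edgeR, corrected by Benjamini-Hochberg over all tested genes, at 0.05. SE is the log2 fold change divided by the root of F. Up to 3 genes per list and comparison were eligible for naming, by size of change among those passing without overlap at 5 CPM or more, and some eligible genes are not named. RB1 was given outside this rule. A count of 3 corresponds to 0.0992 to 0.208 CPM. Intervals cover counting error only where said. Alternatives were other scalings, filters, tools, a replicate term, fits of only the groups compared, a threshold of 0.01 and leaving out each library, and thinning, and the scalings and left-out libraries applied to the lists, were added after seeing the data. The edgeR fits of the 4 pairwise comparisons were run on simulated counts that gave all genes 1 common spread. The interaction, the ratios within groups, the lists, the correlations and the promoter search were not simulated. Promoters came from RefSeq (GRCh38.p14) and exon lengths from GENCODE 29, whose build is not that of the counts. Proteins were not used here.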

Additional observations from a re-analysis of the deposited data

Results flagged for a closer look

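For 7 genes the interaction term in edgeR passed, for a change with Tub B that differed between cells with and without TNF, where 1.04% of all tested genes passed as positive. The log2 interaction was 0.65 for E2F1, 1.16 for E2F2, 0.67 for E2F7, 1.48 for E2F8, 0.84 for CCNE2, 0.85 for CDC25A and 0.59 for RBL1. With 1 library left out, the lowest values in that order were 0.37, 0.65, 0.37, 0.91, 0.69, 0.73 and 0.43. The interaction thus stayed positive in every such fit for all 7 genes. Of these, only CDC25A passed when mock replicate 1, TNF replicate 2, TNF + Tub B replicate 1 or either Tub B library was left out, and DESeq2 passed 3 of the 7.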

How the results depend on the processing

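For TNF against mock, 4 members passed, and the count was 2 with no filter or with libraries thinned, and 0 at an adjusted p below 0.01, with library totals only, with upper-quartile scaling, with only the groups compared and in DESeq2 (5, 2, 3, 4 and 0 members at an unadjusted p below 0.05 in these fits), and 0 to 5 when 1 library was left out. With Tub B added to TNF it was 5, or 8 with library totals only, and 4 to 7 when 1 library was left out. For Tub B against mock it was 4, or 0 at an adjusted p below 0.01, 1 with library totals only, 2 with only the groups compared and 1 in DESeq2, and 0 to 6 when 1 library was left out. For TNF + Tub B against Tub B it was 9, and 8 to 9 when 1 library was left out. For the interaction it was 7, or 1 at an adjusted p below 0.01 and 3 in DESeq2, and 1 to 8 when 1 library was left out. With a replicate block the counts were 4, 6, 5, 9 and 8 in the same order, and all genes called numbered 5368, 3656, 2492, 4671 and 914. Member counts in that order were 0, 8, 1, 9 and 9 with library totals only. They were 2, 7, 5, 9 and 8 with no filter and 0, 4, 1, 9 and 3 in DESeq2. In limma-voom they were 4, 5, 3, 9 and 6, and with libraries thinned 2, 5, 3, 9 and 6. A filter of 1 CPM and 30 counts gave 4, 5, 4, 9 and 6. With only the groups compared they were 0, 7, 2 and 9, without the interaction. In the main fit all genes called numbered 5077, 3367, 2120, 4397 and 705 of 16647. At an adjusted p below 0.01 they numbered 3477, 2106, 1058, 2980 and 326. With library totals only they numbered 5621, 4756, 2397, 4333 and 670, and with upper-quartile scaling 5590, 3514, 2119, 4636 and 651. In DESeq2 they numbered 3495, 2261, 1337, 3137 and 422. In limma-voom they numbered 5163, 3318, 2163, 4278 and 690, and with libraries thinned 4304, 2991, 1759, 4150 and 642. With no filter they numbered 4929, 3293, 2225, 4253 and 932. With only the groups compared they numbered 4483, 3775, 1673 and 4585, without the interaction. Thinning, no filter and fits of only the groups compared also change which genes are tested. The labels give the replicate numbers no shared batch. The correlation of deviations between groups was −0.0479 to 0.0473 over all tested genes. Over the 10 members it was 0.57 for mock and TNF, 0.75 for mock and TNF + Tub B, 0.60 for TNF and TNF + Tub B, −0.59 for mock and Tub B, −0.08 for TNF and Tub B, and −0.33 for TNF + Tub B and Tub B. Except where shown above, the cause was not tested. The median log2 ratio of the mock libraries was −0.25 to −0.29 under the other scalings. No called member changed direction in any alternative, and 20 sign changes occurred in values that passed in neither fit. Few counts limit E2F2, E2F8 and CCNE2, whose SE reached 0.34.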
